A study of Rattus norvegicus with 12 samples.

Results

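The cytochrome P450 genes Cyp4f1, Cyp4f4, Cyp4f5, Cyp4f6, Cyp4f17, Cyp4f18, Cyp4v3 and Cyp4b1 were described in the liver of rats given triazole fungicides. These 8 genes encode the Cyp4f subfamily and related fatty acid hydroxylases, and their probe sets were taken by the gene symbol that the array annotation assigns. Of the 8 genes, 7 had a probe set assigned to that gene alone, among 14217 genes so covered, and Cyp4v3 had 2, which gave 8 probe sets. The annotation used here assigns no probe set to Cyp4f18 alone, so no value is given for it. All 8 probe sets passed the filter on dim probe sets described in the processing section.

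Liver RNA came from 12 male Sprague-Dawley rats that were 10 weeks old and were dosed by gavage every 24 h over 72 h. A triazole was given to 3 groups: myclobutanil or propiconazole, each at 300 mg/kg/day, and triadimefon at the lower 175 mg/kg/day. The fourth group was the control, and the labels do not say what its rats were given. With 3 rats in each group and an Affymetrix Rat Genome 230 2.0 array for every liver, unpooled, the spread is that between animals. The comparisons ask how each compound changed these genes against control, and how myclobutanil and propiconazole differed at their shared dose.

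Enzymes of the CYP4 family add a hydroxyl group at or near the last carbon of fatty acids, the omega position. This starts the route by which alcohol and aldehyde dehydrogenases make dicarboxylic acids that peroxisomes shorten. The CYP4F enzymes also take eicosanoids such as leukotriene B4, an attractant of neutrophils, and some of them hydroxylate the side chains of vitamins K and E. As microsomal P450 enzymes they draw electrons from cytochrome P450 reductase, and some also from cytochrome b5. Triazole fungicides bind the haem iron of the fungal P450 that demethylates sterols, and they can bind mammalian P450 enzymes too.

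In the RefSeq gene table of the GRCr8 assembly, Cyp4f1 and Cyp4f6 were direct neighbours, and so were Cyp4f17 and Cyp4f5, all on chromosome 7 with Cyp4f4. Cyp4b1 lay on chromosome 5 next to Cyp4a1, and Cyp4v3 and Cyp4f18 lay on chromosome 16. RefSeq promoter sequences were at hand for 5 of the 8 genes, and Cyp4f4, Cyp4f17 and Cyp4v3 were not in that table. Cyp4f1, Cyp4f6 and Cyp4b1 had scores that were correlated over the 12 arrays by Pearson, though no pair passed by Spearman. Within groups this correlation rested on the myclobutanil arrays. The promoters of these 3 genes are shown because of that correlation. Each covers 250 bases before to 50 bases after a gene start in GRCr8, on the minus strand, at chr7:12672504-12672803 for Cyp4f1, chr7:12708329-12708628 for Cyp4f6 and chr5:134393067-134393366 for Cyp4b1, written 5′ to 3′. Capitals mark the CCAAT motif or, on the other strand, its reverse complement ATTGG.
Cyp4f1: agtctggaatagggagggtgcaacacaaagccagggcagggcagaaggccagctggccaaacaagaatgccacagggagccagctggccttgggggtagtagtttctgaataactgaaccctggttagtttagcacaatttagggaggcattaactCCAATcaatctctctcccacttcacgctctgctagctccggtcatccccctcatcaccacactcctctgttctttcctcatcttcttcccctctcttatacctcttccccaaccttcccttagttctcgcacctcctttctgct
Cyp4f6: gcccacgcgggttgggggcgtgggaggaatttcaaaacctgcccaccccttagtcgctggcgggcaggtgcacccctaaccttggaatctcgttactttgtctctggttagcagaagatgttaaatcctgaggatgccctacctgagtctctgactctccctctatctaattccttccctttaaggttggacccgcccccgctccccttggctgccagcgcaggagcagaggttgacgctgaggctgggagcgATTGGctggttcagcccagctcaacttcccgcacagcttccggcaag
Cyp4b1: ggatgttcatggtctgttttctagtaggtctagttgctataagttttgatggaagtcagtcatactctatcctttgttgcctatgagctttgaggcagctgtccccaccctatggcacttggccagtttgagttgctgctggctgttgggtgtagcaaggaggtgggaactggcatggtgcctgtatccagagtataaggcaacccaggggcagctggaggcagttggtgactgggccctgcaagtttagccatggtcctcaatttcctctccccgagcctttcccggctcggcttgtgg
The Cyp4f1 window held 1 CCAAT on the printed strand, the Cyp4f6 window 1 on the other strand, and the Cyp4b1 window none. Of 33469 RefSeq rat promoters of the same length, 37.5% held CCAAT on either strand. None of the 3 windows held AGGTCA, a half-site of nuclear receptors present on either strand in 16.2% of those promoters, or TATAAA, present in 14.2%. None of the matches overlapped another, and a match describes only the letters of the window. The start used for the Cyp4b1 window lay 20519 bases inside the outer limit of the gene in the same assembly, and that used for Cyp4f1 lay 399 bases inside.

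None of the 8 probe sets passed the test in any comparison. Values are quantile-normalized scores on the authors' log-like scale, whose base is unknown, so differences are in score units and no fold change is given. A score is relative to the other probe sets of its array, and levels are compared between groups for 1 probe set at a time. A difference was called at an adjusted p under 0.05 in limma, adjusted by Benjamini-Hochberg over 21729 probe sets within a comparison. By that rule 0 of the 8 were called for myclobutanil against control, where 1.82% of all probe sets tested were called. The count was also 0 of 8 for propiconazole, where 1.43% were called, for triadimefon, where 0.769% were called, and for myclobutanil against propiconazole, where 0% were called. The limma F-test over the 4 groups called 0 of 8 as well, with 1.07% of all probe sets called. At an unadjusted p under 0.05 the members numbered 2 for myclobutanil, 2 for propiconazole, 1 for triadimefon and 0 for myclobutanil against propiconazole, and the shares of all probe sets were 21.1%, 14.5%, 13.4% and 10.1% in the same order. The median 95% interval of a member reached 0.204 units to either side, and that of all probe sets 0.141.

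For myclobutanil 5 of the 8 lay below 0 with a median of -0.17, for propiconazole 5 with a median of -0.11, and for triadimefon 7 with a median of -0.12. Over all probe sets tested, 55.4%, 56.6% and 56.6% lay below 0, with medians of -0.014, -0.012 and -0.013. The counts for myclobutanil and propiconazole lie near those shares. The 3 comparisons share the control arrays, so their directions are not independent of each other. Cyp4f1, Cyp4f4, Cyp4f6, Cyp4b1 and the brighter probe set of Cyp4v3 lay below control with each of the 3 compounds, and did so with the values as deposited and with median centring too. The groups did not overlap for 1 of the 8 probe sets with myclobutanil, 3 with propiconazole and 3 with triadimefon, against 23.3%, 27.8% and 28.3% of all probe sets. For myclobutanil against propiconazole it was 1 of 8, against 13.4%. These counts lie near the shares of all probe sets and are given as a description.

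**Figure D1:**
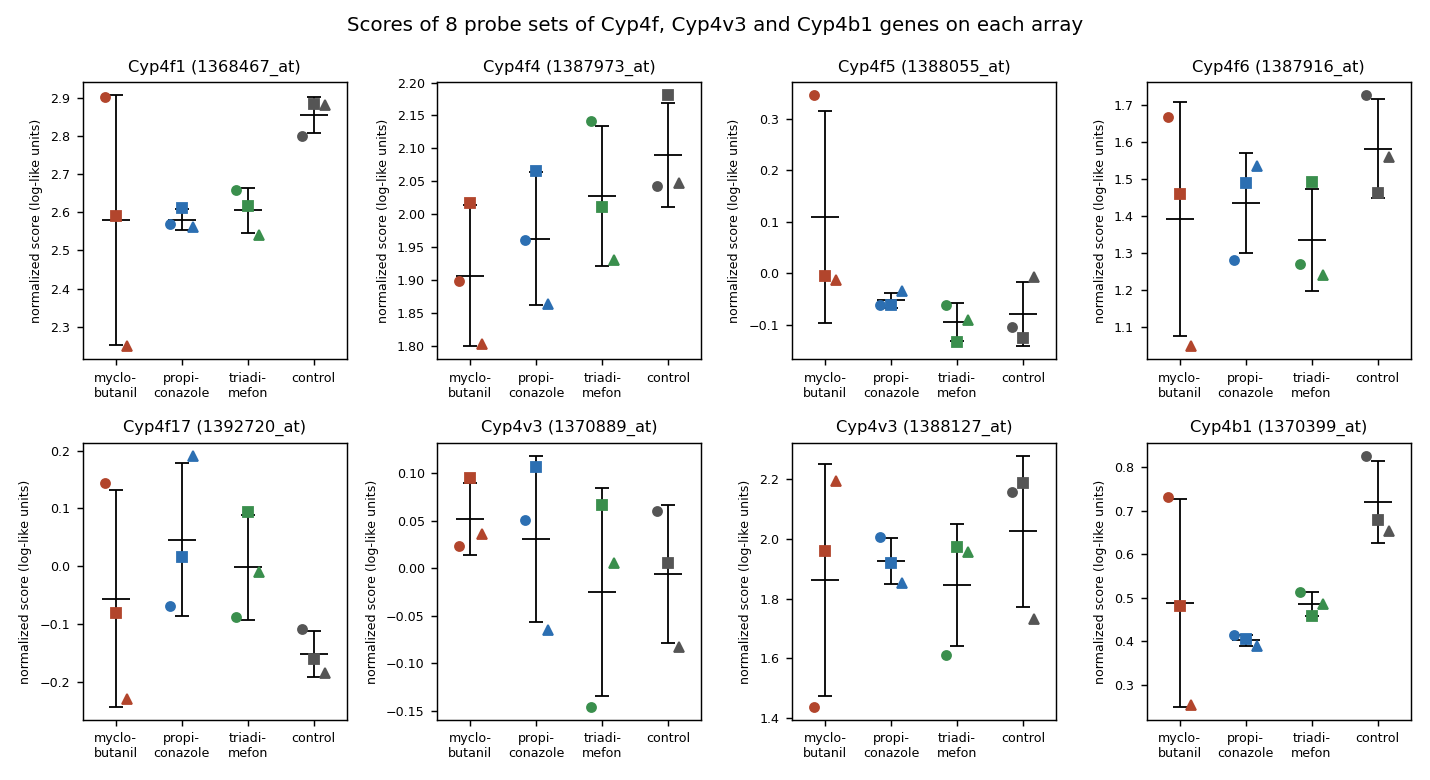
Normalized score (log-like units) of each of the 8 probe sets on the 12 arrays, by group, with the array of replicate 1 as a circle, 2 as a square and 3 as a triangle; the horizontal mark and bars are the mean ± SD of 3 arrays. For Cyp4f1 and Cyp4b1 the propiconazole and triadimefon arrays all lie below the control arrays, while the myclobutanil arrays spread from above 2 or more control arrays to below all arrays of the other groups.

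**Figure D2:**
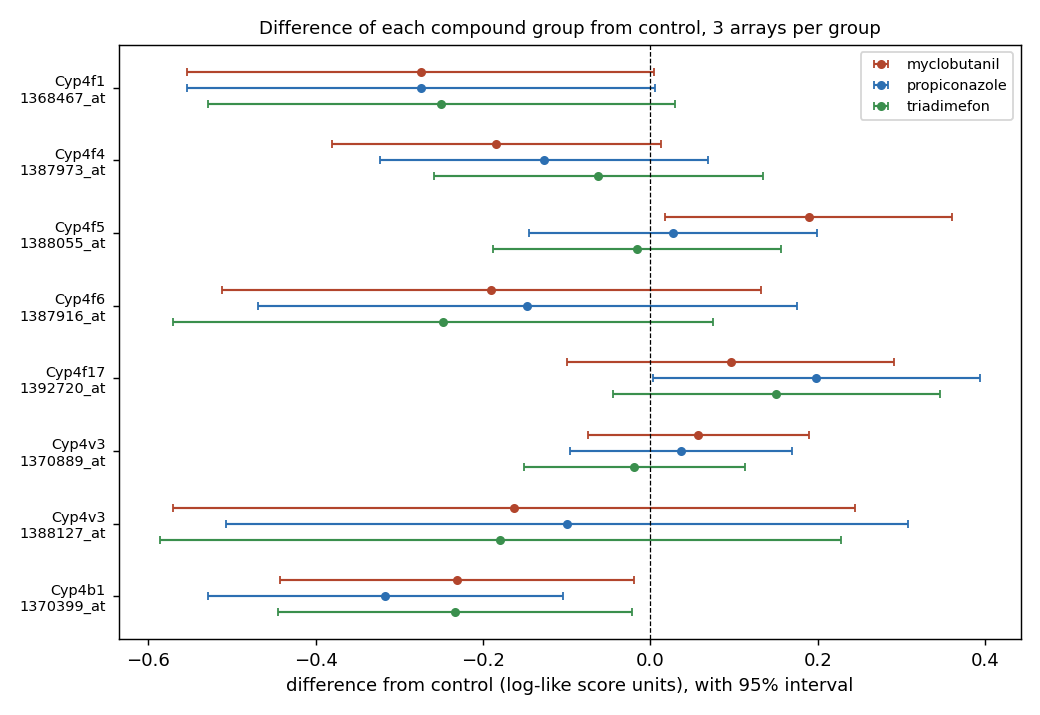
Difference of each compound group from control (score units) with its 95% interval from limma, for the 8 probe sets. The intervals of Cyp4b1 lie below 0 for all 3 compounds, those of Cyp4f1 reach just above 0, and none of these differences had an adjusted p under 0.05.

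Cyp4b1 encodes a hydroxylase of shorter fatty acids, known from the lung of several mammals, where it turns the furan 4-ipomeanol into a toxic product. Its probe set 1370399_at had a mean score of 0.52, brighter than 79.0% of the probe sets on these arrays. It scored 0.73, 0.48 and 0.25 on the myclobutanil arrays and 0.41, 0.41 and 0.39 on the propiconazole arrays. The triadimefon arrays scored 0.51, 0.46 and 0.49, against 0.83, 0.68 and 0.65 on the control arrays. Every propiconazole and triadimefon array lay below every control array, and 1 of the 3 myclobutanil arrays lay among the controls. The group means were 0.49 ± 0.24, 0.40 ± 0.013 and 0.49 ± 0.028 for myclobutanil, propiconazole and triadimefon, and 0.72 ± 0.093 for control (SD, n = 3 each). The difference from control was -0.32 ± 0.096 for propiconazole (SE, limma adjusted p = 0.149), the lowest of a member against control with any single compound. It was -0.23 ± 0.096 for myclobutanil and -0.23 ± 0.096 for triadimefon (limma adjusted p = 0.202 and 0.322). In the order of the means, the 3 compounds stood below control, and those of myclobutanil and triadimefon differed by less than the spread of the myclobutanil arrays. The 5 lung and airway markers, such as the surfactant gene Sftpc and the club cell gene Scgb1a1, stayed near 0, with list means of -0.054 to -0.0092 on the myclobutanil arrays, -0.038 to -0.020 on the propiconazole arrays and -0.032 to -0.021 on the triadimefon arrays, against -0.012 to 0.0064 on the control arrays.

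The annotation of a second probe set is in conflict. 1368934_at is assigned to Cyp4a1, a hydroxylase gene induced through PPAR-alpha, but its listed accession is that of Cyp4b1 in the RefSeq table. It was kept out of the members, and its gene is uncertain. It scored 2.17, 2.12 and 2.17 with myclobutanil, 1.92, 1.95 and 1.78 with propiconazole and 1.83, 1.73 and 2.10 with triadimefon, against 2.11, 2.31 and 2.30 in controls. The propiconazole and triadimefon arrays all lay below the control arrays here too. The differences of -0.36 ± 0.10 for propiconazole and -0.36 ± 0.10 for triadimefon did not pass (limma adjusted p = 0.121 and 0.152), nor did that of -0.088 ± 0.10 for myclobutanil (limma adjusted p = 0.628).

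Among the genes of leukotriene hydroxylases, Cyp4f1 stood furthest from control. The rat enzyme hydroxylates leukotriene B4. Its probe set 1368467_at, brighter on average than 99.2% of the probe sets on these arrays, scored 2.90, 2.59 and 2.25 with myclobutanil, 2.57, 2.61 and 2.56 with propiconazole and 2.66, 2.62 and 2.54 with triadimefon, against 2.80, 2.88 and 2.88 in controls. The propiconazole and triadimefon arrays again all lay below the controls, while the myclobutanil arrays ran from the highest to the lowest score of all 12. The means were 2.58 ± 0.33, 2.58 ± 0.027 and 2.60 ± 0.060 for myclobutanil, propiconazole and triadimefon, and 2.85 ± 0.047 for control (SD, n = 3 each). The 3 compound means lay within 0.03 of each other. The differences from control were -0.27 ± 0.13, -0.27 ± 0.13 and -0.25 ± 0.13 (limma adjusted p = 0.243, 0.356 and 0.43). With the values as deposited they were -0.44, -0.45 and -0.40, more than 1.5 times as far from 0. With median centring they were -0.46, -0.44 and -0.39, and none passed under either scaling. The SE for myclobutanil was larger there too, at 0.24 as deposited and 0.218 with median centring.

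Cyp4f6, the neighbour of Cyp4f1, encodes an enzyme that in rat also hydroxylates leukotriene B4. Its probe set 1387916_at scored 1.67, 1.46 and 1.05 with myclobutanil, 1.28, 1.49 and 1.54 with propiconazole and 1.27, 1.49 and 1.24 with triadimefon, against 1.73, 1.46 and 1.56 in controls. The groups overlapped, and the lowest score was that of myclobutanil replicate 3, as for Cyp4f1 and Cyp4b1. The differences from control were -0.19 ± 0.15 for myclobutanil, -0.15 ± 0.15 for propiconazole and -0.25 ± 0.15 for triadimefon (limma adjusted p = 0.471, 0.703 and 0.51).

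Cyp4f4 encodes another leukotriene B4 hydroxylase of the rat. The scores of 1387973_at were 1.90, 2.02 and 1.80 with myclobutanil, 1.96, 2.07 and 1.86 with propiconazole and 2.14, 2.01 and 1.93 with triadimefon, against 2.04, 2.18 and 2.05 in controls. The myclobutanil arrays all lay below the controls, the nearest of them by less than 0.03. The differences from control were -0.18 ± 0.089 for myclobutanil, -0.13 ± 0.089 for propiconazole and -0.062 ± 0.089 for triadimefon (limma adjusted p = 0.264, 0.56 and 0.82). The myclobutanil value was -0.28 with the scores as deposited and -0.31 with median centring, and did not pass there. The order of means, from myclobutanil at 1.91 over propiconazole at 1.96 and triadimefon at 2.03 to control at 2.09, had no neighbours further apart than the SD within the groups.

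Cyp4f5 and Cyp4f17, neighbours on chromosome 7, were read by dim probe sets with mean scores near 0. For Cyp4f5, whose enzyme hydroxylates leukotriene B4 in rat, 1388055_at scored 0.35, -0.0052 and -0.012 with myclobutanil, -0.061, -0.061 and -0.035 with propiconazole and -0.061, -0.13 and -0.092 with triadimefon, against -0.10, -0.13 and -0.0078 in controls. A single array, myclobutanil replicate 1, stood high. The difference from control was 0.19 ± 0.078 for myclobutanil (limma adjusted p = 0.199), and 0.071 ± 0.035 without that array (limma adjusted p = 0.246). For propiconazole it was 0.027 ± 0.078 and for triadimefon -0.016 ± 0.078 (limma adjusted p = 0.92 and 0.959). The Cyp4f17 probe set 1392720_at scored 0.14, -0.081 and -0.23 with myclobutanil, -0.069, 0.016 and 0.19 with propiconazole and -0.088, 0.093 and -0.010 with triadimefon, against -0.11, -0.16 and -0.19 in controls. All propiconazole and triadimefon arrays lay above the controls, a side opposite to that of Cyp4f1 and Cyp4b1. The differences from control were 0.096 ± 0.089 for myclobutanil, 0.20 ± 0.089 for propiconazole and 0.15 ± 0.089 for triadimefon (limma adjusted p = 0.549, 0.336 and 0.509).

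Cyp4v3 is the rodent counterpart of human CYP4V2, a fatty acid hydroxylase whose loss causes the retinal disease Bietti crystalline dystrophy. The brighter of its probe sets, 1388127_at, scored 1.44, 1.96 and 2.19 with myclobutanil, 2.01, 1.92 and 1.85 with propiconazole and 1.61, 1.97 and 1.95 with triadimefon, against 2.16, 2.19 and 1.73 in controls. All groups overlapped, and the myclobutanil replicates stood in the opposite order to those of Cyp4f1, Cyp4f6 and Cyp4b1. The differences from control were -0.16 ± 0.19, -0.10 ± 0.19 and -0.18 ± 0.19 for myclobutanil, propiconazole and triadimefon (limma adjusted p = 0.628, 0.862 and 0.724). The dim probe set 1370889_at ranged from 0.024 to 0.095 with myclobutanil, from -0.065 to 0.11 with propiconazole and from -0.15 to 0.066 with triadimefon, against -0.083 to 0.061 in controls. Its differences of 0.057 ± 0.060 for myclobutanil and 0.036 ± 0.060 for propiconazole had the opposite sign to those of the brighter probe set, and for triadimefon it was -0.019 ± 0.060 (limma adjusted p = 0.599, 0.841 and 0.932). Since the Cyp4f genes are alike in sequence, a probe set may pick up transcripts of a neighbouring family member, and each Cyp4f value is uncertain in that respect.

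Myclobutanil and propiconazole, the only pair given at the same dose and time, were compared directly. Myclobutanil carries a nitrile and a butyl chain, and propiconazole a dioxolane ring. None of the 8 probe sets differed between them in limma. For Cyp4f1 the difference, myclobutanil minus propiconazole, had a 95% interval from -0.28 to 0.28, and for Cyp4b1 from -0.13 to 0.30. For Cyp4f4 it ran from -0.25 to 0.14, for Cyp4f6 from -0.37 to 0.28 and for Cyp4f17 from -0.30 to 0.093. For Cyp4v3 it ran from -0.47 to 0.34 (1388127_at) and from -0.11 to 0.15 (1370889_at). Only Cyp4f5 had groups without overlap, at 0.16 ± 0.078 with an interval from -0.0096 to 0.33 (limma adjusted p = 0.507, the lowest of the 8). Without myclobutanil replicate 1 the Cyp4f5 difference was 0.044 ± 0.035 (limma adjusted p = 0.699). Intervals of this width do not show that the compounds act alike. Triadimefon was given at a lower dose, so its values stand beside the others with no test between compounds.

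Myclobutanil replicate 1 was unlike the other 11 arrays. Before normalization its median score was 0.157 while theirs ran between 0.0182 and 0.0552, and it correlated with them at a median of 0.927, where theirs were 0.962 to 0.982. Without it, the scores of Cyp4f1 and Cyp4b1 were lower with myclobutanil than in control by the test. The difference of Cyp4f1 was -0.43 ± 0.091 (limma adjusted p = 0.038) and that of Cyp4b1 -0.36 ± 0.071 (limma adjusted p = 0.0312), so 2 of 8 were called where 3.08% of all probe sets were. The estimate of spread is shared, so other comparisons moved as well. Cyp4b1 was then called for propiconazole at -0.32 ± 0.063 (limma adjusted p = 0.021), where 4.46% of all probe sets were called, and by the F-test (limma adjusted p = 0.0403), where 3.17% were. For triadimefon, with 2.81% called, Cyp4b1 at -0.24 ± 0.063 and Cyp4f1 at -0.25 ± 0.081 did not pass (limma adjusted p = 0.0781 and 0.127). Cyp4b1 was also called for propiconazole without myclobutanil replicate 3 (-0.32 ± 0.069, limma adjusted p = 0.0493, with 1.87% called). The myclobutanil values turned on that array too, since without it Cyp4f1 stood at -0.11, Cyp4b1 at -0.11 and Cyp4f6 at -0.017 against control, and none of them passed.

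A fit on the 6 propiconazole and control arrays alone called Cyp4f1 at -0.28 ± 0.056 and Cyp4b1 at -0.32 ± 0.057 (limma adjusted p = 0.0448 and 0.0356), with 2.97% of all probe sets called. The mean of the 3 compounds was set against control after the values had been seen. Cyp4b1 stood at -0.26 ± 0.079 and Cyp4f1 at -0.27 ± 0.10 (limma adjusted p = 0.0977 and 0.183), so 0 of 8 were called, where 2.98% of all probe sets were. Without myclobutanil replicate 1 both were called, at -0.31 ± 0.053 and -0.31 ± 0.068 (limma adjusted p = 0.00984 and 0.0216), where 9.45% of all probe sets were. The calls of Cyp4b1 and Cyp4f1 thus depended on which arrays entered the fit. For myclobutanil the differences themselves moved with the array left out, while those for propiconazole moved little under these choices of arrays.

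**Figure D3:**
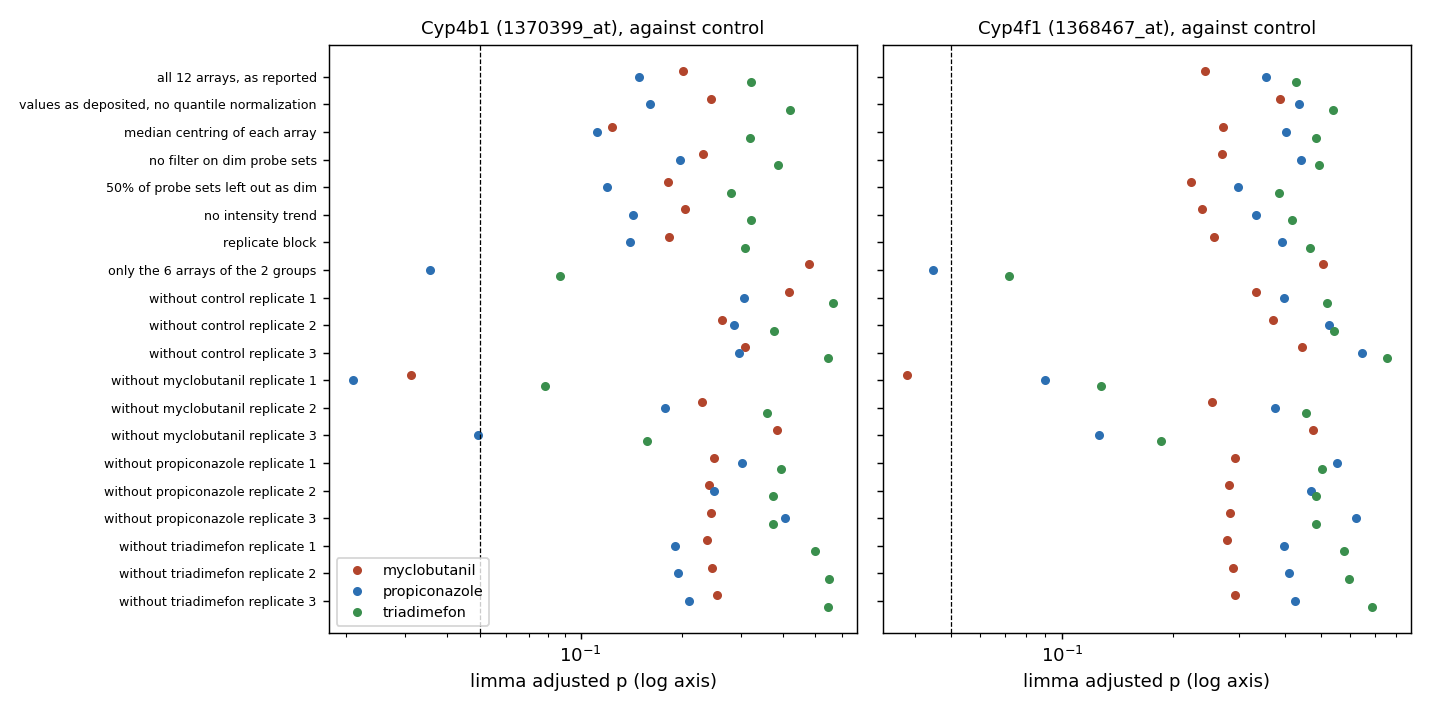
Adjusted p from limma (log axis) of Cyp4b1 and Cyp4f1 against control for each compound, with all 12 arrays and under each alternative; the dashed line marks 0.05. Points lie left of the line without myclobutanil replicate 1 (both genes for myclobutanil, Cyp4b1 for propiconazole), with only the 6 arrays of 2 groups (both genes for propiconazole) and, just left of it, without myclobutanil replicate 3 (Cyp4b1 for propiconazole).

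Over the 12 arrays Cyp4f1 and Cyp4b1 had a Pearson correlation of 0.90 and a Spearman correlation of 0.82 (permutation p = 0.00026 and 0.0018, two-sided). Adjusted over the 28 pairs of member probe sets these p were 0.0073 and 0.051. Cyp4f1 with Cyp4f6 and Cyp4f6 with Cyp4b1 were the other 2 pairs with an adjusted Pearson p under 0.05, at 0.78 and 0.75 (permutation, adjusted p = 0.041 and 0.049), and no pair passed by Spearman. Without the 2 arrays farthest from the median, the 3 correlations were 0.85, 0.52 and 0.45. Deviations from the group means gave 0.85, 0.75 and 0.79, but -0.46, -0.15 and 0.27 over the 9 arrays without myclobutanil. The relation within groups thus rests on the myclobutanil arrays, which for Cyp4f1 and Cyp4b1 spread from the level of the controls to below every other array, and between groups on the gap between control and the compounds.

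**Figure D4:**
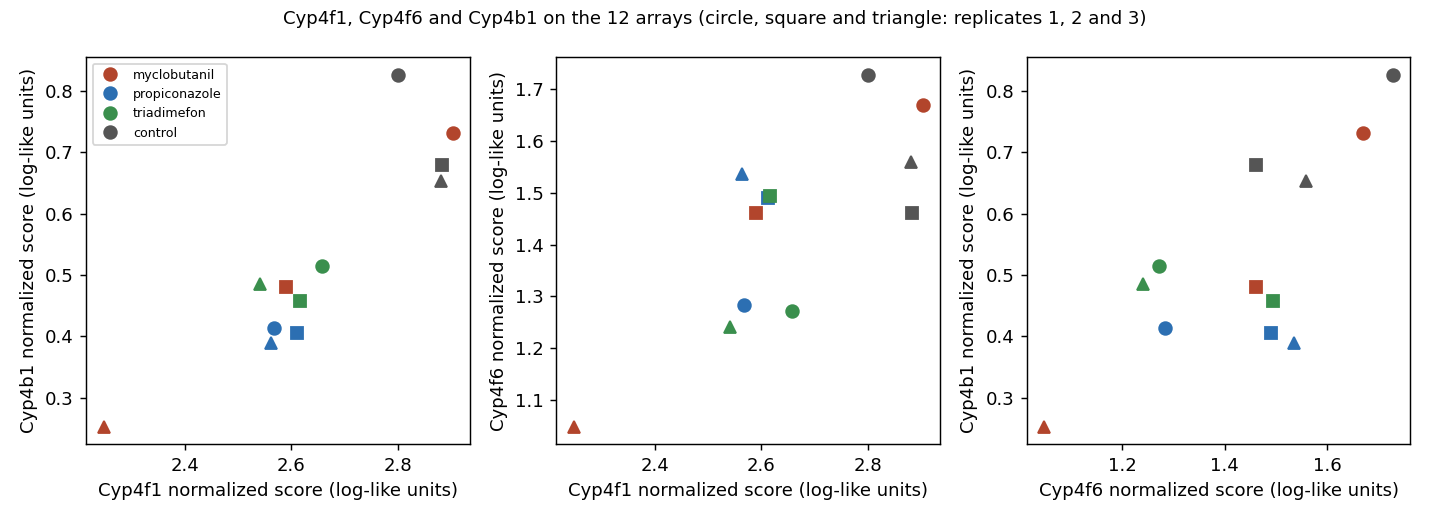
Normalized scores (log-like units) of Cyp4f1 with Cyp4b1, Cyp4f1 with Cyp4f6 and Cyp4f6 with Cyp4b1, 1 point per array, with circles, squares and triangles for replicates 1, 2 and 3. Myclobutanil replicate 3 has the lowest score of each of the 3 genes, and myclobutanil replicate 1 lies near the control arrays.

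Genes with a pattern like these 3 were sought among 11841 genes by Pearson correlation over the 12 arrays, as a description. For Cyp4b1 the closest were Arhgef19 at 0.93 and the carbonic anhydrase gene Car1 at 0.93, and Cyp4f1 came at place 15. For Cyp4f1 they were Spire1, an actin nucleator gene, and the extracellular superoxide dismutase gene Sod3, both at 0.95, with Cyp4b1 at place 31. For Cyp4f6 they were Gtpbp6 at 0.96 and the transcription factor gene Usf2 at 0.95, with Cyp4f1 at place 252 and Cyp4b1 at place 369.

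Markers of resident liver macrophages moved with myclobutanil. Of 9 Kupffer cell and macrophage markers 5 fell and 0 rose in limma, with 0 higher before adjustment at p under 0.05. Clec4f, a Kupffer cell lectin gene, fell by 1.35 ± 0.22, and C1qa, a complement gene, fell by 1.002 ± 0.16 (limma adjusted p = 0.0176 and 0.0133). Their mean score was 0.81, 0.28 and 0.24 on myclobutanil replicates 1, 2 and 3, the same order as Cyp4f1, Cyp4f6 and Cyp4b1. It was 1.05, 1.03 and 1.17 with propiconazole and 1.02, 1.05 and 1.17 with triadimefon, against 1.09, 1.25 and 1.21 in controls. In none of these markers did propiconazole or triadimefon pass the test, although the Cyp4b1 and Cyp4f1 scores of those groups also lay below control. In bulk liver, fewer cells of a type and less RNA per cell cannot be told apart, and the part of macrophages in the member values was not tested. Of 4 endothelial markers, Kdr, a receptor gene for a vascular growth factor, fell by 0.55 ± 0.11 with myclobutanil and fell by 0.64 ± 0.11 with propiconazole (limma adjusted p = 0.0407 and 0.0268), and the other 3 did not pass. The endothelial list means were 0.95 to 1.06 with myclobutanil, 0.87 to 1.02 with propiconazole and 1.03 to 1.12 with triadimefon, against 1.05 to 1.24 in controls. Of 4 stellate cell markers, Lrat, which makes retinyl esters, fell by 0.36 ± 0.069 with myclobutanil and fell by 0.40 ± 0.069 with propiconazole, and Rgs5, a pericyte gene, rose with myclobutanil by 0.46 ± 0.090 (limma adjusted p = 0.0322, 0.0231 and 0.0344). The stellate list means were 0.26 to 0.30, 0.16 to 0.22 and 0.24 to 0.47 with myclobutanil, propiconazole and triadimefon, against 0.16 to 0.26 in controls, with Des near 0 in all groups. Triadimefon called 0 markers of both lists in limma, while before adjustment 1 endothelial marker was lower, 1 stellate marker higher and 1 lower at p under 0.05. The part of these cells in the Cyp4b1 and Cyp4f1 values was not tested. Of 5 tested neutrophil and leukocyte markers 0 were called for any compound. S100a9 stood at 0.59 ± 0.19 for myclobutanil (limma adjusted p = 0.114), where the list median was -0.056. Of 2 tested cholangiocyte markers 0 were called. For myclobutanil, propiconazole and triadimefon, Epcam stood at 0.42, 0.52 and 0.39 (limma adjusted p = 0.15, 0.133 and 0.286). Krt7 stood at -0.090, -0.029 and -0.012 in that order. The part of these cells was not tested either. The 9 hepatocyte markers had list means of 2.90 to 3.18 with myclobutanil, 3.17 to 3.30 with propiconazole and 3.16 to 3.24 with triadimefon, against 3.08 to 3.21 in controls. Among them Apoa1, an apolipoprotein gene, rose with propiconazole by 0.49 ± 0.089 (limma adjusted p = 0.0278). It stood at 0.36 ± 0.089 with myclobutanil and 0.30 ± 0.089 with triadimefon and did not pass there (limma adjusted p = 0.0698 and 0.166). Ass1 stood at -0.40 ± 0.12 with myclobutanil (limma adjusted p = 0.111). Albumin had the top score on every array, which quantile normalization fixes, so it could not move. A sign of RNA integrity, the 3′ score minus the 5′ score of GAPDH, was 0.62 ± 0.13, 0.43 ± 0.11 and 0.59 ± 0.21 with myclobutanil, propiconazole and triadimefon, and 0.66 ± 0.25 in control (SD, n = 3 each). The same measure of beta-actin was 0.81 ± 0.15, 0.64 ± 0.093 and 0.84 ± 0.20, and 0.68 ± 0.20 in control. Propiconazole had the lowest mean for both genes, and the order of the other groups differed between the 2 genes. The part of RNA integrity in the member values was not tested.

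Of 4 electron donor genes, Por, which encodes cytochrome P450 reductase, rose with each compound, and the cytochrome b5 genes Cyb5a and Cyb5b and the reductase gene Cyb5r3 did not pass. Por scored 1.44, 1.45 and 1.44 with myclobutanil, 1.74, 1.95 and 1.86 with propiconazole and 2.01, 2.24 and 1.90 with triadimefon, against 1.11, 0.66 and 0.65 in controls. No compound array overlapped the controls. The rise was 0.64 ± 0.13 for myclobutanil, 1.04 ± 0.13 for propiconazole and 1.24 ± 0.13 for triadimefon (limma adjusted p = 0.0362, 0.00642 and 0.00476). For myclobutanil the call held under 9 of 19 alternatives.

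Of 16 tested genes that act after omega-hydroxylation, in the oxidation to dicarboxylic acids and in peroxisomes, 1 rose with each compound and 0 fell in limma (3, 1 and 2 lower at an unadjusted p under 0.05 for myclobutanil, propiconazole and triadimefon). It was Aldh1a1, best known as a retinaldehyde dehydrogenase. Aldh1a1 scored 2.31, 2.56 and 2.21 with myclobutanil, 2.65, 2.54 and 2.27 with propiconazole and 2.38, 2.46 and 2.05 with triadimefon, against 1.52, 1.19 and 1.37 in controls (limma adjusted p = 0.0115, 0.00661 and 0.0145). The myclobutanil call held under 17 of 19 alternatives, the propiconazole call under 19 and the triadimefon call under 14. Aldh3a2, the fatty aldehyde dehydrogenase that takes the product of omega-hydroxylation further, was named for that role. It stood at -0.24 ± 0.12, -0.051 ± 0.12 and 0.032 ± 0.12 and did not pass (limma adjusted p = 0.27, 0.896 and 0.945). The lowest of the 16 were Aldh2 with myclobutanil at -0.61, and Crot with propiconazole at -0.40 and triadimefon at -0.44. They did not pass (limma adjusted p = 0.0629, 0.205 and 0.196). At an unadjusted p under 0.05, 3, 2 and 1 of the 16 were higher for myclobutanil, propiconazole and triadimefon. The list medians were -0.049, -0.074 and 0.0085, close to those of all probe sets.

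Among 21 tested genes of eicosanoid and leukotriene metabolism, 2 rose and 1 fell with myclobutanil. Ltc4s, which encodes the synthase of leukotriene C4, scored 1.001, 1.30 and 1.77 with myclobutanil, 0.23, 0.51 and 0.68 with propiconazole and 0.33, 0.30 and 0.28 with triadimefon, against 0.44, 0.50 and 0.33 in controls. Its rise with myclobutanil was 0.93 ± 0.16 (limma adjusted p = 0.0224). Mgst2, a membrane glutathione transferase that can also make leukotriene C4, rose by 0.61 ± 0.12, and Ptgs1, the constitutive cyclooxygenase gene, fell by 0.40 ± 0.088 (limma adjusted p = 0.0328 and 0.0466). With propiconazole and triadimefon Mgst2 stood at 0.29 ± 0.12 and 0.25 ± 0.12 (limma adjusted p = 0.285 and 0.385). Ptgs1 stood at -0.25 ± 0.088 and -0.14 ± 0.088 in that order (limma adjusted p = 0.211 and 0.527). The call of Ptgs1 held under 4 of 19 alternatives, that of Mgst2 under 11 and that of Ltc4s under 15. Without myclobutanil replicate 1 all 3 were called, at -0.44, 0.44 and 1.12 (limma adjusted p = 0.0447, 0.0216 and 0.00718 in that order). Propiconazole and triadimefon called 0 of the 21 in limma, with 3 higher and 2 lower for propiconazole and 1 higher and 0 lower for triadimefon at an unadjusted p under 0.05. The difference of Ltc4s between myclobutanil and propiconazole, 0.88 ± 0.16, did not pass (limma adjusted p = 0.161).

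Of 6 tested genes of vitamin K and vitamin E handling, Vkorc1l1, a paralog of the vitamin K epoxide reductase gene, rose with each compound. Its scores were 0.58, 0.61 and 0.69 with myclobutanil, 0.53, 0.47 and 0.65 with propiconazole and 0.56, 0.63 and 0.56 with triadimefon, against 0.25, 0.33 and 0.20 in controls. The rises were 0.36 ± 0.059, 0.29 ± 0.059 and 0.32 ± 0.059 (limma adjusted p = 0.0161, 0.0402 and 0.0305), and the calls held under 15, 7 and 11 of 19 alternatives in that order. Nqo1, a quinone reductase gene, rose with myclobutanil by 0.70 ± 0.10 (limma adjusted p = 0.0115, called under 15 of 19 alternatives) and stood at 0.42 ± 0.10 with propiconazole and 0.26 ± 0.10 with triadimefon (limma adjusted p = 0.0746 and 0.3). At an unadjusted p under 0.05, 2 of the 6 were higher and 1 was lower with each compound. The lower gene, Sec14l2, stood at -0.22, -0.26 and -0.22 and did not pass (limma adjusted p = 0.158, 0.155 and 0.254). Of the other Cyp4 genes 3 were tested, Cyp4a8, Cyp4a3 and the probe set assigned to Cyp4a1, and 0 were called in limma (0, 1 and 1 at an unadjusted p under 0.05 for myclobutanil, propiconazole and triadimefon, each being 1368934_at).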

How the data were processed

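The deposited table gives, per probe set and array, a log-like score that the authors made, on a scale whose log base is, like the software and the normalization steps, not given in the sources used here. The values ran from -1.00 to 4.83, and mean spike-in scores in the median array were 0.482 for bioB, 1.10 for bioC, 2.31 for bioD and 3.24 for cre. Groups follow the sample titles.

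Of 31099 probe sets, 57 controls were left out. Since array medians ranged over 0.138, more than the typical SD within groups (median 0.0523), quantile normalization was applied. The upper end of that range was myclobutanil replicate 1 at 0.157, and the other array medians ran from 0.0182 to 0.0552. The choice of scaling thus rested on that array. The 30% with the lowest mean (9313 of 31042) were left out as dim. The other 21729 were fitted with limma 3.58.1 (R 4.3.3) on the 4 group means, with an intensity trend and 8 residual degrees of freedom, two-sided, with Benjamini-Hochberg adjustment within each of 4 comparisons, and a moderated F-test. The 3 arrays per group limit the precision. The fit was tested on simulated data with independent noise for each probe set and array. Those data held no array as unlike the others as myclobutanil replicate 1. Python 3.11.15 with matplotlib 3.10.9 drew the figures. Symbols come from the platform annotation, updated by Entrez ID through a RefSeq table of GRCr8 for 20758 of 20826 probe sets with 1 gene.

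All member probe sets are named. Other genes come from fixed lists. The rule named called genes, up to 4 per comparison by adjusted p, or, where none was called, the 2 of smallest p. Not all of these are printed, and Aldh3a2, Sec14l2, Cyb5a, Cyb5r3 and albumin were named outside the rule. A gene is read by its brightest probe set. Members and lists were chosen with earlier results of these data known. Alternatives were other scalings, filters, variance models, arrays and a replicate block. Deviations of same-numbered replicates had correlations from -0.494 to 0.495, over 0.1 in 3 of 18 pairs, so the numbers were not taken as pairs.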

Additional observations from a re-analysis of the deposited data

How the results depend on the processing

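With 1 array left out, the members called ran from 0 to 2 for myclobutanil, 0 to 1 for propiconazole, 0 to 0 for triadimefon, 0 to 0 for myclobutanil against propiconazole, 0 to 1 in the F-test and 0 to 2 for the mean of the compounds. All probe sets called ran from 30 to 924, 36 to 969, 6 to 611, 0 to 29, 8 to 689 and 68 to 2054 in the same order, against 395, 311, 167, 0, 233 and 647 with all 12 arrays. With only the 6 arrays of the groups compared they were 9, 645 and 609 for myclobutanil, propiconazole and triadimefon, and 2 members were called for propiconazole. A replicate block gave 180, 121 and 87, and 59 in the F-test, and called no member. Myclobutanil against propiconazole called 1 probe set with the values as deposited, 1 with median centring, 2 with 50% left out as dim and 5 with no intensity trend. With median centring 71.5% of the propiconazole calls were higher, against 56.6% with quantile normalization. Of 596 single member values under the alternatives, 569 kept direction and side of the threshold, 6 passed the test and 21 changed sign, 19 of these with 1 array left out. The other 2 were Cyp4f1 for myclobutanil against propiconazole, 0.016 as deposited and 0.00028 with 6 arrays, against -0.00030. With 1 array left out that value ran from -0.16 to 0.17, Cyp4b1 from -0.037 to 0.20, Cyp4f6 from -0.18 to 0.13, and Cyp4v3 from -0.23 to 0.15 (1388127_at) and from -0.027 to 0.059 (1370889_at). Against control, again with 1 array left out, Cyp4f17 ran from -0.0040 to 0.18 and Cyp4v3 1388127_at from -0.33 to 0.050 with myclobutanil. Cyp4v3 1370889_at ran from -0.0022 to 0.084 with propiconazole, from -0.065 to 0.041 with triadimefon and from -0.014 to 0.058 for the mean of the compounds, and Cyp4f5 from -0.040 to 0.020 with triadimefon. The causes were not tested.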
